A study of Mus musculus with 8 samples.

Results

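Smooth muscle contracts with its own set of myosin, actin and actin-binding proteins. The values here are for 9 genes of that set in mouse gastrocnemius, a mixed calf muscle, namely Myl9, Myl6, Myh11, Acta2, Tpm4, Tagln, Cnn1, Cald1 and Des. All alternative polyadenylation sites (APSs) whose gene symbol was one of the 9 names were taken from the deposited table, which gave 40 APSs of 56483 in all, and 9 genes of 15349 by symbol. Myl9 was picked because it stood near the top of the AMPKα1 knockout comparison, and the other 8 genes were picked as its partners in smooth muscle. The AMPKα1 values below are therefore a description, with no p-value for any member and with nothing read from its counts of calls, whereas the AMPKα2 comparison was not used to pick the genes and its tests are given.

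In smooth muscle, calcium and calmodulin switch on myosin light chain kinase, which phosphorylates the regulatory light chain encoded by Myl9. The phosphorylated light chain lets the heavy chain encoded by Myh11 pull on actin filaments that contain Acta2. Tropomyosin (Tpm4), caldesmon (Cald1), calponin (Cnn1) and transgelin (Tagln) sit on those filaments, and desmin (Des) links the contractile units inside the cell. In a skeletal muscle sample Acta2, Myh11, Tagln and Cnn1 are known as markers of vessel walls, while Des is also made by the muscle fibres, and Cald1, Tpm4 and Myl6 are also made by many non-muscle cells.

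The study sequenced transcript 3′ ends (WTTS-seq, whole transcriptome termini site sequencing) to compare mice lacking 1 of the 2 catalytic subunits of AMPK, an energy-sensing kinase. The 8 libraries fell into 4 groups of 2 male mice, which were AMPKα1 KO, AMPKα1 WT, AMPKα2 KO and AMPKα2 WT, and each library came from 1 mouse. The knockouts were of the whole body. According to the methods, the age of the AMPKα1 KO mice was about 6 weeks and their strain was another than C57BL/6, the strain that the sample labels name for all 8 mice. The AMPKα2 KO mice had an age of about 8 weeks and were C57BL/6 in both sources, while the methods give neither an age nor a strain for the WT mice. Age, stated strain and model cannot be told apart, so KO was compared with WT only within a model. Within a model, genotype may also go with age or strain, since the methods give neither for the WT mice. In AMPKα1 these cannot be told apart from genotype.

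The libraries held 2311242 to 3549156 counted reads, and the 9 genes took 0.180% to 0.535% of them. The targeted gene of the AMPKα1 mice, Prkaa1, had 0 and 82 reads in the libraries labelled AMPKα1 KO and 15 and 0 in those labelled AMPKα1 WT. All of these reads came from 1 intron site on chromosome 15 at 5163362. The study describes the AMPKα1 deletion as the DNA that codes for part of the catalytic domain. Placed on GENCODE M21 (GRCm38, transcript Prkaa1-201), that stretch runs from 5143914 to 5174415 and holds the site. If the introns of the stretch were deleted with it, the 82 reads go against the label of the library labelled AMPKα1 KO 2, so AMPKα1 results are given with and without that library. The targeted gene of the AMPKα2 mice, Prkaa2, had 40 and 71 reads in KO libraries and 87 and 62 in WT libraries, but all 7 of its sites lay outside the deleted stretch, so these counts do not check the labels. Groups are called by their labels throughout. The markers of fast skeletal fibres were present in every library, with a summed level of 42842 to 139217 counts per 1000000 reads (CPM). The biological coefficient of variation, the typical spread of a gene between replicates, was 103.5% in AMPKα1 (77.4% without the library labelled AMPKα1 KO 2) and 26.2% in AMPKα2. A gene could have 16 or more reads in 1 library and 0 in its replicate, which held for 22.8% of such genes in AMPKα1 KO and 9.29% in AMPKα1 WT. In AMPKα2 these shares were 0.279% for KO and 0.248% for WT.

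The bases at a selection of the sites that the counts rest on are shown first. Each line gives the 30 bases of the annotated transcript that end at the site, or at the end of the transcript where the site lay a few bases past it. Bases are 5′ to 3′ on the strand of the gene, from GENCODE M21 transcripts on GRCm38. Capitals mark a polyadenylation hexamer found on that strand, and a line with no capitals holds none of the 12 searched. These were the canonical AATAAA, its common variant ATTAAA, and the weaker AGTAAA or TATAAA or CATAAA or GATAAA or AATATA or AATACA or AATAGA or ACTAAA or AAGAAA or AATGAA. Where a window held several, AATAAA was marked before any other. Of the 40 sites, 23 could be read in this way.
Myl9, its only site, chr2:156781629-156781658, + strand: gacagtctcttAATACAaggctgaacacca
Myl6, its only site, chr10:128490860-128490889, − strand: accaAATAAAatttgctctctttgccctct
Myh11, main site, chr16:14194535-14194564, − strand: tcactttcactAATAAAaggttgtaagtca
Myh11, a coding exon site, chr16:14220222-14220251, − strand: ggagatgcaggccaaggaggaggagatgca
Acta2, main site, chr19:34241516-34241545, − strand: aaatcagacatgtgctacccttaacttgta
Acta2, second site, chr19:34241090-34241119, − strand: catggatatgcatgcgtgacttttaacttg
Tpm4, 3′ UTR site, chr8:72153108-72153137, + strand: acattttggtcaAATAAAtttttgcataaa
Tagln, main site, chr9:45930002-45930031, − strand: atatgtttttgggttgaaattcaaaaagga
Tagln, distal site, chr9:45929624-45929653, − strand: tgaaaAGTAAAaatcaaatcttaagcatta
Cnn1, its only site, chr9:22108704-22108733, + strand: gcacAATAAAtggctgtgacatcattggag
Cald1, main site, chr6:34745921-34745950, + strand: agaacagctatcaggatgctgaagacaaaa
Cald1, distal site, chr6:34775443-34775472, + strand: atccacAATAAAtggaattcttccagatgt
Des, main site, chr1:75367695-75367724, + strand: atAATAAAgagacaagcacaaacctgcatg
Des, a coding exon site, chr1:75362638-75362667, + strand: tcacagctgccctcagggacatccgggctc

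The canonical AATAAA was present at 6 of the 23 readable sites, which were the main or distal 3′ ends of Des, Myh11, Myl6, Tpm4, Cnn1 and Cald1. Over all 25081 sites that could be read in the series, 34.9% held AATAAA and 59.8% held any of the 12 hexamers. Myl9 had AATACA and neither AATAAA nor ATTAAA, and AATACA was found at 2.15% of all readable sites. Neither Acta2 window held any of the hexamers, nor did that of the main Tagln site. AAGAAA was found at 34755815, a Cald1 coding exon site, and at 34774094 in the Cald1 3′ UTR, both not shown above. A hexamer alone thus did not separate 3′ UTR sites from coding exon sites here. The 30 bases downstream could be read for 14 sites of the 9 genes, and 3 of them were A-rich (a run of 7 or more As, or 8 As within 10 bases), against 24.1% of 14717 sites in the series. These were the main site of Tagln, with 20 As of 30, the main site of Cald1 in a coding exon, with 17 As of 30, and a Cald1 3′ UTR site at 34774094, with 16 As of 30. A-rich genomic stretches can prime oligo(dT) inside a transcript, and the part of such priming in these counts was not tested. The match of a hexamer is a description of the letters only.

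Levels are given as CPM with TMM factors over all 8 libraries. These factors were 1.66 to 2.31 in the AMPKα1 libraries and 0.370 to 0.579 in the AMPKα2 libraries, so any order of levels between the models depends on the scaling and is also given by library totals. A level in bulk muscle cannot tell fewer cells of a type from less RNA per cell. Errors are SDs over 2 libraries, and with 2 against 2 an exact two-sided permutation test of a single value cannot go below p = 0.333, so tests come from edgeR's quasi-likelihood fit over all genes. A gene or site was called at a Benjamini-Hochberg adjusted p under 0.1.

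**Figure D1:**
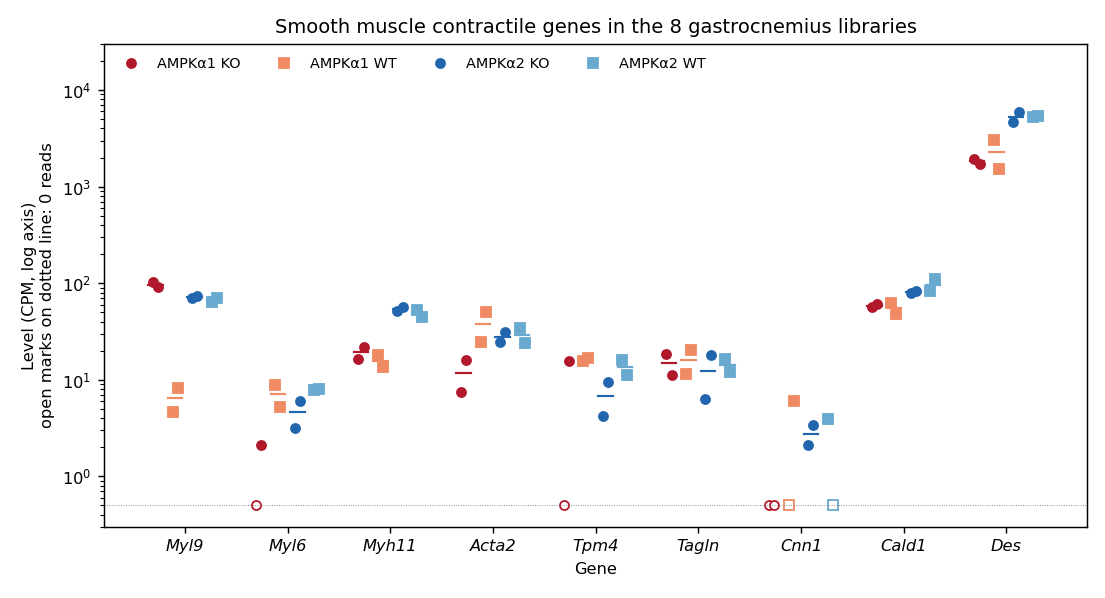
Level of each gene (CPM, log axis) in the 8 libraries, with bars at group means and open marks for libraries with 0 reads. Myl9 in the 2 AMPKα1 WT libraries (4.68 and 8.31 CPM) lay below all 6 other libraries, and Cnn1 had 0 reads in 4 of the 8 libraries.

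Myl9 encodes the regulatory light chain of smooth muscle myosin, and its only site lay on chromosome 2 at 156781661, 3 bases past the annotated end of the gene. It had 725 and 687 reads in the libraries labelled AMPKα1 KO and 18 and 60 reads in AMPKα1 WT. The levels were 102 and 90.8 CPM in AMPKα1 KO and 4.68 and 8.31 CPM in AMPKα1 WT. Both KO libraries were thus far above both WT libraries, and the log2 fold change was 3.84 (SE 0.54), or 3.90 without the library labelled AMPKα1 KO 2.
In the AMPKα2 model, Myl9 had 67 and 108 KO reads and 132 and 88 WT reads, with levels of 71.0 and 72.9 CPM in KO and 64.2 and 70.0 CPM in WT. The KO libraries lay just above the WT libraries on this scale and overlapped them by library totals. The log2 fold change was 0.09 (SE 0.26, edgeR adjusted p = 0.951), and it was −0.091 by library totals.
On either scale AMPKα1 WT had the lowest and AMPKα1 KO the highest mean of the 4 groups. By library totals, Myl9 was at 7.79 and 17.5 CPM in AMPKα1 WT, 26.3 to 41.7 CPM in the 4 AMPKα2 libraries and 211 and 209.5 CPM in AMPKα1 KO.

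Myl6 encodes the essential light chain that myosin heavy chains of smooth and non-muscle cells share. Its only site lay on chromosome 10 at 128490859, 1 base past the annotated end. The libraries labelled AMPKα1 KO had 0 and 16 reads and the AMPKα1 WT libraries 34 and 38 reads, which came to 0 and 2.11 CPM in KO and 8.84 and 5.26 CPM in WT. The log2 fold change was −2.72 with an SE of 2.27, and it ran from −8.44 without the library labelled AMPKα1 KO 2 to −1.73 without AMPKα1 KO 1.
In AMPKα2, the gene had 3 and 9 KO reads and 16 and 10 WT reads, or 3.18 and 6.08 CPM against 7.78 and 7.95 CPM. Both KO libraries lay below both WT libraries, but the log2 fold change of −0.71 (SE 0.58) did not pass the edgeR test (adjusted p = 0.778).

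Myh11 encodes the smooth muscle myosin heavy chain. Its reads over 10 sites summed to 116 and 167 in the libraries labelled AMPKα1 KO, 69 and 98 in AMPKα1 WT, 49 and 84 in AMPKα2 KO, and 109 and 56 in AMPKα2 WT. In AMPKα1 the levels were 16.4 and 22.1 CPM in KO and 17.9 and 13.6 CPM in WT, and the groups overlapped, with a log2 fold change of 0.26 (SE 0.63) that became −0.0045 without the library labelled AMPKα1 KO 2. In AMPKα2 they were 51.9 and 56.7 CPM in KO and 53.0 and 44.5 CPM in WT, again overlapping, with a log2 fold change of 0.14 (SE 0.28, edgeR adjusted p = 0.931) that was −0.045 by library totals.
The main site on chromosome 16 at 14194532, 3 bases past the annotated end, held 54.3% of the reads. It had 103 and 68 reads in AMPKα1 KO, 33 and 93 in AMPKα1 WT, 16 and 19 in AMPKα2 KO and 46 and 28 in AMPKα2 WT. A site at 14193304, past the end, had 28 reads in AMPKα1 WT 1 and at most 6 in any other library. Other sites with at least 5% of the reads lay inside the gene, among them an intron site at 14200964 with 4 to 10 reads in each AMPKα2 library. A coding exon site at 14277706 had 11 and 0 reads in AMPKα1 KO, none in AMPKα1 WT, 8 and 14 in AMPKα2 KO and 23 and 2 in AMPKα2 WT.

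Acta2 encodes the actin isoform of vascular smooth muscle. Its 3 sites on chromosome 19 summed to 53 and 122 reads in the libraries labelled AMPKα1 KO and 95 and 363 reads in AMPKα1 WT. The levels were 7.48 and 16.1 CPM in KO and 24.7 and 50.3 CPM in WT, and both KO libraries lay below both WT libraries. The log2 fold change was −1.69 (SE 0.69) and ran from −2.39 without the library labelled AMPKα1 KO 2 to −1.05 without AMPKα1 WT 2, so its direction was opposite to that of Myl9 in the same libraries.
In AMPKα2, Acta2 had 23 and 46 KO reads and 71 and 30 WT reads, or 24.4 and 31.1 CPM against 34.5 and 23.9 CPM. The groups overlapped, with a log2 fold change of −0.10 (SE 0.34, edgeR adjusted p = 0.958).
The main site, at 34241516 in the 3′ UTR, held 75.6% of the reads, and a second site at 34241088, 2 bases past the annotated end, held 21.4%. The second site took 125 of 363 reads in AMPKα1 WT 2, a share of 34.4% (Wilson 95% interval 29.7% to 39.5%). It took 6 of 95 in AMPKα1 WT 1, which is 6.32% (2.93% to 13.1%). The 2 WT libraries therefore differed in the site used by more than counting error, and the libraries labelled AMPKα1 KO 1 and 2 did too, with 0 of 53 and 26 of 122 reads there.

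Tpm4 encodes a tropomyosin of non-muscle and smooth muscle filaments, and had an intron site and a 3′ UTR site on chromosome 8. The intron site at 72137327 had 0 and 118 reads in the libraries labelled AMPKα1 KO and 12 and 45 in AMPKα1 WT. The 3′ UTR site at 72153137 had 0 and 0 reads in AMPKα1 KO and 48 and 75 in AMPKα1 WT. Against a floor of 3 reads per library, the 3′ UTR site was at least 29.96-fold lower in AMPKα1 KO. Of all APSs with 16 or more reads in an AMPKα1 KO library, 52.3% had 0 in the replicate, and this bound does not allow for that. Summed over both sites the libraries labelled KO thus had 0 and 118 reads, and the gene's log2 fold change of −1.05 (SE 1.80) became −0.06 without AMPKα1 KO 1 and −9.63 without the library labelled AMPKα1 KO 2.
Tpm4 was at 0 and 15.59 CPM in the libraries labelled AMPKα1 KO and 15.60 and 16.62 CPM in AMPKα1 WT. By library totals the groups overlapped, with 35.98 CPM in the library labelled AMPKα1 KO 2 against 25.96 and 34.96 CPM in AMPKα1 WT.
In AMPKα2, the 3′ UTR site had 4 and 8 KO reads and 24 and 12 WT reads, and the intron site 0 and 6 KO reads and 9 and 2 WT reads. The gene was at 4.24 and 9.45 CPM in KO and 16.1 and 11.1 CPM in WT, with KO below WT. Its log2 fold change of −0.95 (SE 0.51) did not pass the edgeR test (adjusted p = 0.655), nor did that of the 3′ UTR site, −1.26 (SE 0.58, adjusted p = 0.667).

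Tagln encodes transgelin, an actin-binding protein of smooth muscle. Its main site on chromosome 9 at 45930002 had 46 and 85 reads in the libraries labelled AMPKα1 KO and 43 and 146 in AMPKα1 WT. The distal site at 45929624, 5 bases before the annotated end, had 86 and 0 reads in AMPKα1 KO and 1 and 0 in AMPKα1 WT, so 1 library held 86 of its 92 reads in the series. Other sites in this stretch, on the opposite strand, are assigned to Pcsk7, and the method keeps strand. Over the gene, the levels of 18.6 and 11.2 CPM in AMPKα1 KO and 11.4 and 20.2 CPM in AMPKα1 WT overlapped, with a log2 fold change of −0.12 (SE 0.71) that was 0.068 by library totals and 0.17 without the library labelled AMPKα1 KO 2.
In AMPKα2 the gene had 6 and 27 KO reads and 34 and 15 WT reads, with overlapping levels of 6.36 and 18.2 CPM in KO and 16.5 and 11.9 CPM in WT. The log2 fold change was −0.18 (SE 0.50, edgeR adjusted p = 0.950). Without AMPKα2 KO 1 it was 0.30.

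Cnn1 encodes calponin, an inhibitor of the actomyosin ATPase. It had 43 reads in AMPKα1 WT 2 and none in the other 3 AMPKα1 libraries, and 2 and 5 reads in AMPKα2 KO and 8 and 0 in AMPKα2 WT. Against 3 reads per library, it was at least 7.26-fold lower in AMPKα1 KO, a bound that rests on AMPKα1 WT 2 alone. Its reads in AMPKα2 were under the minimum of 16 over 4 libraries, so it was not tested there.

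Cald1 encodes caldesmon, which binds actin and restrains myosin. Its reads over 12 sites summed to 398 and 456 in the libraries labelled AMPKα1 KO, 241 and 348 in AMPKα1 WT, 74 and 124 in AMPKα2 KO and 170 and 138 in AMPKα2 WT. In AMPKα1 the levels were 56.2 and 60.3 CPM in KO and 62.7 and 48.2 CPM in WT, and the log2 fold change was 0.04 (SE 0.43), or −0.042 without the library labelled AMPKα1 KO 2. In AMPKα2 they were 78.4 and 83.7 CPM in KO and 82.7 and 109.8 CPM in WT, and the log2 fold change was −0.25 (SE 0.26, edgeR adjusted p = 0.843). The groups overlapped in both models on this scale, while by library totals KO was above WT in AMPKα1 and below it in AMPKα2.
Most Cald1 reads did not lie at the end of the gene. The site at 34745950, in a coding exon well before the annotated end, held 58.3% of them, and another coding exon site at 34755815 held 16.8%. The site at the end of the gene, 34775472, held 3.44%, with 0 and 9 reads in AMPKα1 KO, 13 and 13 in AMPKα1 WT, 2 and 3 in AMPKα2 KO, and 20 and 7 in AMPKα2 WT. These are few reads, and the share of all APSs with KO below WT in this way was not counted. In AMPKα2 the log2 fold change of this site was −2.02 (SE 0.74), which did not pass the edgeR test (adjusted p = 0.629).

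Des encodes desmin, the intermediate filament protein of smooth muscle and of skeletal and cardiac fibres. Its main site in the 3′ UTR on chromosome 1 at 75367724 had 13687 and 12950 reads in the libraries labelled AMPKα1 KO, 11779 and 11017 in AMPKα1 WT, 3817 and 8080 in AMPKα2 KO, and 9907 and 6359 in AMPKα2 WT. The levels of the gene were 1933 and 1711 CPM in AMPKα1 KO and 3068 and 1528 CPM in AMPKα1 WT, which overlapped, with a log2 fold change of −0.37 (SE 0.41) that became 0.22 without AMPKα1 WT 1 and was −0.31 without the library labelled AMPKα1 KO 2. They were 4621 and 5942 CPM in AMPKα2 KO and 5313 and 5434 CPM in AMPKα2 WT, with a log2 fold change of −0.04 (SE 0.29, edgeR adjusted p = 0.982). This AMPKα2 difference was smaller than the spread between mice.

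**Figure D2:**
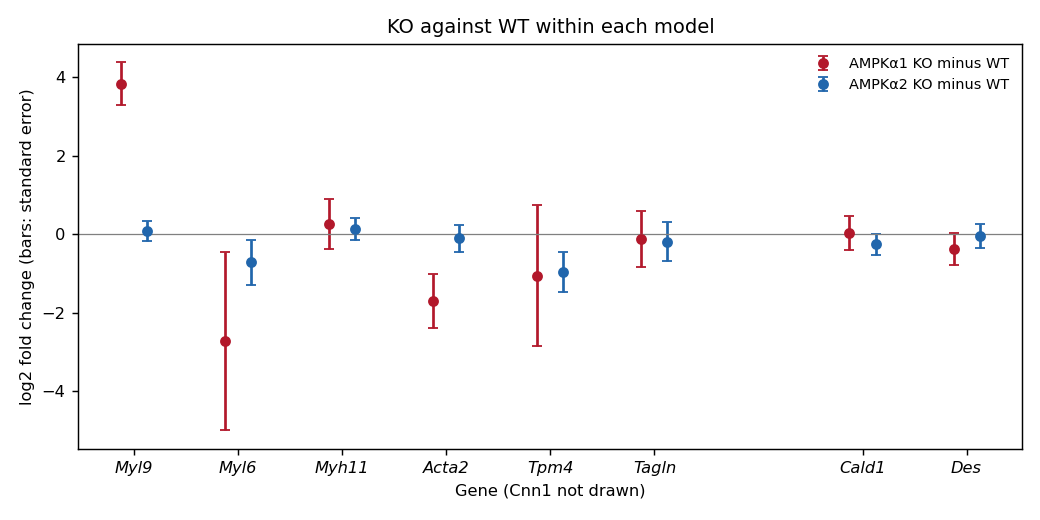
Log2 fold change of KO against WT in each model (points) with its standard error (bars), from edgeR with TMM factors, for the 8 genes with reads in both groups of both models. Myl9 in AMPKα1 (3.84, SE 0.54) stands apart, and all 8 AMPKα2 values lie between −0.95 and 0.14.

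In AMPKα2, edgeR called 0 of the 8 genes tested, where 0.484% of 10536 genes were called. Of the 8, 0 had an unadjusted p under 0.05, against 885 of the 10536. DESeq2 called 0 of the 6 that it gave an adjusted p, against 1.27% of 5815 genes. Their log2 fold changes were above 0 for 2 and below 0 for 6, with a median of −0.14 against −0.0044 over all genes tested. By site, 0 of 24 were called, against 0.056% of 23218 APSs. At the site level, 4 of the 24 had an unadjusted p under 0.05, against 1763 of the 23218 APSs. DESeq2 called 0 of 9 sites, against 2.16% of 4441 APSs. The AMPKα1 contrast chose Myl9, so a call of Myl9 there follows from the choice and nothing is read from the AMPKα1 counts. EdgeR called 0 of the 9 genes in AMPKα1 and 0% of 13924 genes, with 589 of all genes and 2 of the 9 at an unadjusted p under 0.05. By site it called 0 of 27, against 0.00454% of 44024 APSs, with 1353 of all APSs and 3 of the 27 at an unadjusted p under 0.05. DESeq2 called 1 of 8 genes (Myl9), against 1.14% of 10081 genes, and 2 of 13 sites (Myl9 and the Tpm4 3′ UTR site), against 1.37% of 15869 APSs. Without the library labelled AMPKα1 KO 2 only 1 KO library was left, so counts of p-values are not given for that setting here. The median log2 fold change of the 9 genes in AMPKα1 was −0.37, against −0.03 over all genes tested, with Cnn1 at its fitted value or at its bound, and without that library it was −0.31 against −0.24.
On the scale of CPM, KO and WT libraries did not overlap in AMPKα1 for 4 genes, of which Myl9 was above (14.2% of all genes tested) and Acta2, Myl6 and Tpm4 were below (18.2% of all genes tested). Leaving out a library cannot undo such a gap, so the setting without the library labelled AMPKα1 KO 2 is no check of it. In AMPKα2, Myl9 was above (19.3% of all genes tested) and Myl6 and Tpm4 were below (20.3% of all genes tested). The tally changed with the scaling. By library totals, Myl9, Myh11 and Cald1 were above in AMPKα1 (18.5% of all genes tested) and Acta2 and Myl6 below (14.2%), while in AMPKα2 none was above (10.2%) and Myl6, Tpm4 and Cald1 were below (23.0%). A test of the KO effect of AMPKα2 minus that of AMPKα1 over all 8 libraries called 1 of the 9 genes, Myl9, at −3.77 (SE 0.55), and 0.0586% of 15349 genes. Without the library labelled AMPKα1 KO 2 the Myl9 difference was −3.95. The test holds the contrast that chose Myl9, so it is given with no p.

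Across the 4 groups, the order of mean levels depended on the scaling for every gene except Cnn1, whose libraries overlapped between all neighbours in the order. With TMM factors, Des, Myh11 and Cald1 were higher in both AMPKα2 groups than in both AMPKα1 groups. Des, for example, was at 5282 ± 934 CPM in AMPKα2 KO and 5374 ± 86.0 CPM in AMPKα2 WT, against 1822 ± 157 CPM in AMPKα1 KO and 2298 ± 1089 CPM in AMPKα1 WT (SD, n = 2). By library totals the order of the models was the opposite for these 3 genes. For Myl9 no neighbours in the TMM order overlapped, from AMPKα1 WT at 6.50 ± 2.57 CPM to 67.1 ± 4.11 in AMPKα2 WT, 72.0 ± 1.33 in AMPKα2 KO and 96.6 ± 8.20 in AMPKα1 KO (SD, n = 2).

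**Figure D3:**
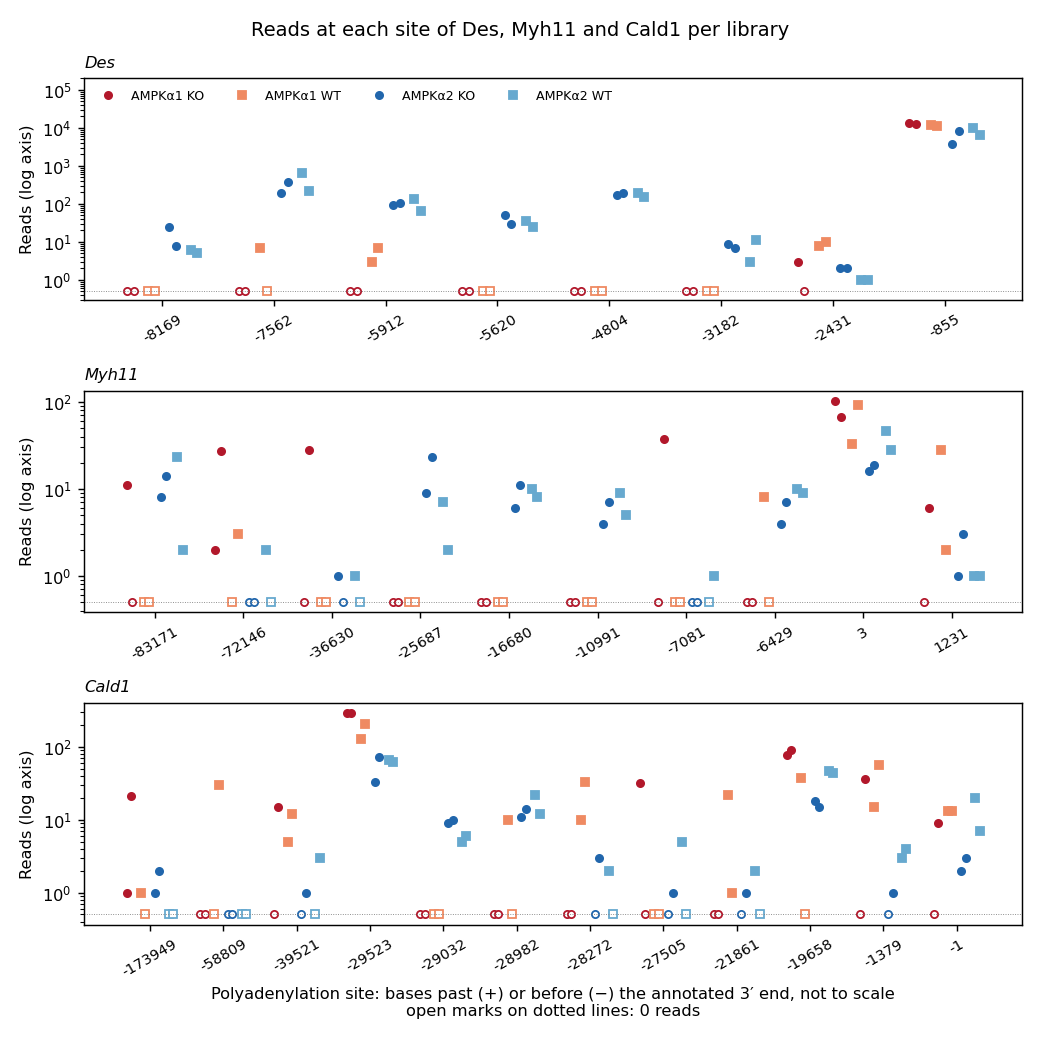
Reads at each site of Des, Myh11 and Cald1 (log axis) in every library, with sites ordered by their distance from the annotated 3′ end of the gene and open marks for 0 reads. Des sites other than its main site held up to 646 reads in AMPKα2 libraries and at most 10 in AMPKα1 libraries.

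The models differed in where the reads of a gene lay. Des had 7 sites besides its main site, and 5 of them reached 24 to 646 reads in their highest AMPKα2 library. An intron site at 75361017 had 193 and 374 reads in AMPKα2 KO and 646 and 212 in AMPKα2 WT, against 0 and 0 in AMPKα1 KO and 7 and 0 in AMPKα1 WT. One of the 7, with 27 reads in all, lay on the opposite strand to Des. Another intron site at 75363775 had 174 and 199 reads in AMPKα2 KO and 196 and 156 in AMPKα2 WT and none in any AMPKα1 library.
The share of Des reads away from the main site was 12.5% (Wilson 95% interval 11.5% to 13.5%) and 8.22% (7.67% to 8.82%) in AMPKα2 KO. It was 9.33% (8.80% to 9.89%) and 6.92% (6.35% to 7.55%) in AMPKα2 WT. In AMPKα1 it was 0.0219% and 0% in KO and 0.153% and 0.154% in WT, and the 0 of 12950 reads in the library labelled KO 2 allow up to 0.0297% by the Wilson interval. All 4 AMPKα2 libraries were thus far above all 4 AMPKα1 libraries, while KO and WT overlapped within AMPKα2. Intervals cover counting error only. The libraries of the 2 models also differ in age, stated strain and normalization factor, which cannot be told apart from the model.

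**Figure D4:**
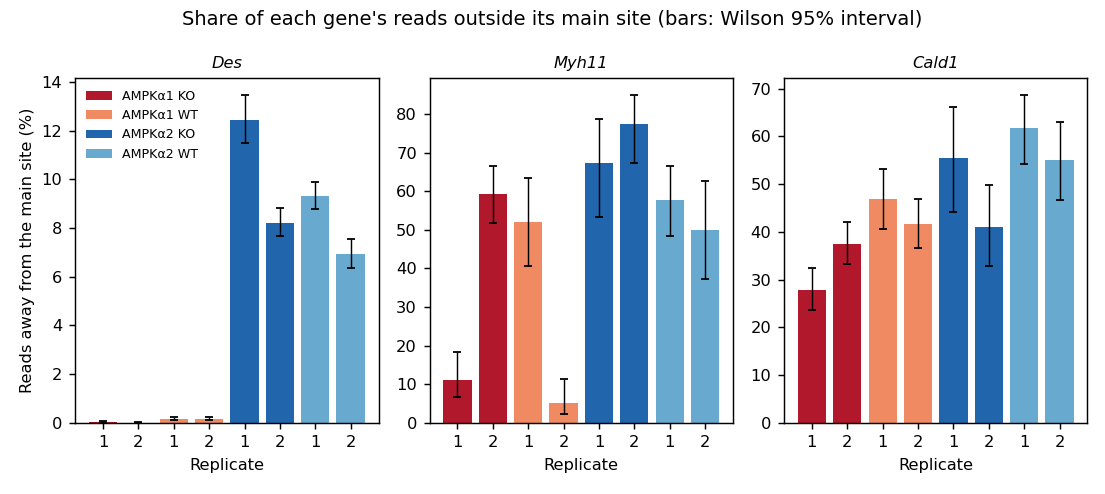
Share of reads outside the main site (%) for Des, Myh11 and Cald1 in each library, with Wilson 95% intervals. For Des the 4 AMPKα2 libraries lie between 6.92% and 12.5% and the 4 AMPKα1 libraries at or under 0.154%, and for Myh11 the AMPKα1 libraries range from 5.10% to 59.3%.

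Among the internal sites of Myh11, those at 14205526 and 14220222 (coding exons) and 14211215 (an intron) had no read in any AMPKα1 library, and between 2 and 23 reads in each AMPKα2 library. Other internal Myh11 sites had reads in only 1 of the 4 AMPKα1 libraries, such as 38 reads at 14201616 and 28 at 14231165, both in introns and both in the library labelled AMPKα1 KO 2. As a result the share of Myh11 reads away from the main site was 11.2% (6.67% to 18.2%) and 59.3% (51.7% to 66.4%) in AMPKα1 KO and 52.2% (40.6% to 63.5%) and 5.10% (2.20% to 11.4%) in AMPKα1 WT. In AMPKα2 it was 67.4% (53.4% to 78.8%) and 77.4% (67.4% to 85.0%) in KO. It was 57.8% (48.4% to 66.65%) in WT 1, and in WT 2 it was 28 of 56 reads (37.3% to 62.7%). Both AMPKα2 KO libraries were thus above both WT libraries, but the interval of KO 1 overlapped those of WT 1 and WT 2. Over the 40 sites of the 9 genes, 8 had no read in AMPKα1 and 1 had none in AMPKα2, against 12.6% and 11.4% of all APSs.
Whether a site changed relative to the other sites of its gene was tested in AMPKα2 (edgeR's diffSpliceDGE). The test called 0 of the 20 sites, against 0.143% of 14707 APSs. An unadjusted p under 0.05 was found for 498 of the 14707 APSs and for 2 of the 20 sites. These were the Myh11 coding exon site at 14220222, with 9 and 23 KO reads and 7 and 2 WT reads (adjusted p = 0.886), and the Des 5′ UTR site at 75360410, with 24 and 8 KO reads and 6 and 5 WT reads (adjusted p = 1). On the scale of the site itself, their log2 fold changes were 2.10 (SE 0.67, edgeR adjusted p = 0.604) and 1.95 (SE 0.81, adjusted p = 0.648). Without AMPKα2 KO 1 the Des value was 0.55.

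A site with reads in 1 replicate and none in the other was frequent in AMPKα1. In AMPKα1 KO, 18 sites of the 9 genes reached 16 reads in a library, and 9 of these 18 had none in the replicate, as did 52.3% of all such APSs. In AMPKα1 WT it was 3 of 17 (17.6%), against 27.8% of all such APSs. In AMPKα2 it was 0 of 13 in KO and 0 of 16 in WT, against 0.799% and 0.661%. The 9 genes were thus close to the other genes in this respect in AMPKα1 KO, and values of a single AMPKα1 site carry that limit. The KO counts need both libraries, so they have no value without the library labelled AMPKα1 KO 2.

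Other genes of the contractile machinery came from a list of 20 partners, such as Mylk (myosin light chain kinase), Smtn and Lmod1 (actin-binding proteins of smooth muscle) and the myosin phosphatase subunits. Of the 20, 18 were in the table and tested in both models, and Actg2 and Kcnmb1 had no row. In AMPKα2 edgeR called none of the 18 (0.484% of all genes), with 8 log2 fold changes above 0 and 10 below 0 and a median of −0.09 against −0.0044 over all genes. In AMPKα1 it also called none (0% of all genes), with 5 above and 13 below 0 and a median of −0.66 against −0.03 over all genes. Without the library labelled AMPKα1 KO 2, 4 of 17 were above 0, with a median of −1.01 against −0.24 over all genes. The ends of the list in AMPKα2 were Synpo2, an actin-binding protein of the Z disc, at 0.75 (SE 0.29, adjusted p = 0.530) and Ppp1r14a, an inhibitor of myosin phosphatase, at −0.65 (SE 0.66, adjusted p = 0.837). In AMPKα1 they were the same pair with the ends swapped. Ppp1r14a was at 4.21 (SE 3.66), from 0 and 38 KO reads and 1 and 0 WT reads, so the value rests on the library labelled AMPKα1 KO 2 alone, and without it the gene had too few reads to be tested. Synpo2 was at −2.10 (SE 0.68), from 201 and 75 KO reads and 412 and 374 WT reads, or −1.55 without that library. Without it the ends of the list were Myl12a, a regulatory light chain of non-muscle myosin, at 0.73 (SE 0.70) and Lmod1 at −4.72 (SE 2.12).
Mylk, which encodes the kinase that acts on Myl9, had 41 and 156 reads in AMPKα1 KO, 60 and 177 in AMPKα1 WT, 15 and 29 in AMPKα2 KO and 48 and 21 in AMPKα2 WT, and was singled out after its values were seen. Its log2 fold change was −0.62 (SE 0.82) in AMPKα1, or −1.85 without the library labelled AMPKα1 KO 2, and −0.20 (SE 0.38, edgeR adjusted p = 0.931) in AMPKα2.

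A list of 12 regulators of smooth muscle genes held transcription factors such as Srf and Myocd and the kinases Rock1 and Rock2. Of the 11 tested in AMPKα2, edgeR called none (0.484% of all genes), with 7 log2 fold changes above and 4 below 0 and a median of 0.02 against −0.0044 over all genes. Rock1 was the highest at 0.76 (SE 0.33, edgeR adjusted p = 0.577) and Mkl1, a co-activator of Srf, the lowest at −0.44 (SE 0.29, adjusted p = 0.720). Of the 12 tested in AMPKα1 it called none (0% of all genes), with 3 above and 9 below 0 and a median of −0.34 against −0.03 over all genes. Without the library labelled AMPKα1 KO 2 these counts were the same and the median was −0.71 against −0.24. Myocd, the co-activator of Srf that drives smooth muscle genes, had the highest fitted value there, from 48 and 21 reads in AMPKα1 KO and 0 and 0 in AMPKα1 WT, at least 7.99-fold higher against 3 reads per library. Of those reads 48 were in AMPKα1 KO 1. Foxo4 was the lowest at −1.27 (SE 0.60), or −1.58 without the library labelled AMPKα1 KO 2. Myocd had 0 and 0 reads in AMPKα2 KO and 1 and 2 in AMPKα2 WT.

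**Figure D5:**
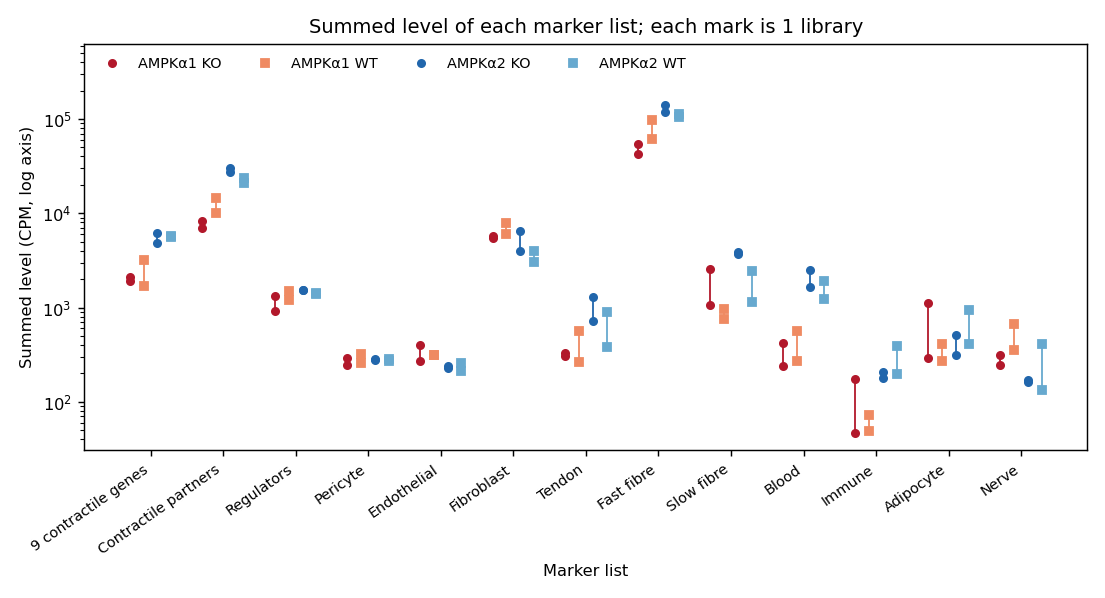
Summed level (CPM, log axis) of the 9 genes and of each marker list, with 1 mark per library joined within a group. With these TMM factors the pericyte and endothelial lists overlap between KO and WT in both models. By library totals the pericyte sum is higher in AMPKα1 KO (567 and 601 CPM) than in AMPKα1 WT (530 and 544 CPM). With TMM factors, 6 of the 8 pericyte log2 fold changes in AMPKα1 are below 0. The fast fibre sum with TMM factors is lower in AMPKα1 KO (42842 and 53756 CPM) than in AMPKα1 WT (61017 and 97019 CPM).

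Markers of cells that lie next to vascular smooth muscle were read in the same libraries. The 8 pericyte markers, such as Rgs5 and Pdgfrb, summed to 246 to 291 CPM in AMPKα1 KO and 259 to 318 CPM in AMPKα1 WT, and to 278 to 282 CPM in AMPKα2 KO and 272 to 282 CPM in AMPKα2 WT. The 10 endothelial markers, such as Pecam1 and Cdh5, summed to 272 to 396 CPM in AMPKα1 KO and 313 to 317 CPM in AMPKα1 WT, and to 229 to 239 CPM in AMPKα2 KO and 213 to 259 CPM in AMPKα2 WT. With TMM factors KO and WT thus overlapped for both lists in both models. By library totals the endothelial sums overlapped too, but the pericyte sums in AMPKα1 did not, at 567 and 601 CPM in KO and 530 and 544 CPM in WT. With TMM factors, 2 pericyte log2 fold changes in AMPKα1 were above and 6 below 0. Their median was −0.86, against −0.03 over all genes. The endothelial list had 3 above and 7 below 0 there, with a median of −0.16. Without the library labelled AMPKα1 KO 2, the endothelial sum of the other KO library (396 CPM) lay above both WT libraries, and its pericyte sum (291 CPM) lay between them. EdgeR called no gene of either list in AMPKα1 (0% of all genes) or AMPKα2 (0.484% of all genes).
Lists that did not overlap with TMM factors in AMPKα1 were fast fibre (0 of 10 log2 fold changes above 0), fibroblast (6069 to 7835 CPM in WT and 5514 to 5757 CPM in KO), nerve (353 to 668 CPM in WT and 248 to 312 CPM in KO) and the 18 partners, all lower in KO, and slow fibre, higher in KO. The fibroblast list had 3 log2 fold changes above and 7 below 0 in AMPKα1. Of its 10 genes, 2 had both KO libraries below both WT libraries in CPM (18.2% of all genes tested). In AMPKα1 the slow fibre list had 4 log2 fold changes above and 2 below 0. Of its 6 genes, 1 had both KO libraries above both WT libraries in CPM (14.2% of all genes tested). By library totals the fibroblast and nerve sums overlapped. AMPKα1 KO 1 alone was on the same side of both WT libraries for these 5 lists, with 1 of 10 fast fibre log2 fold changes above 0, and it was also below them for the regulators, blood and immune lists. In AMPKα2 the slow fibre list was higher in KO, at 3700 and 3889 CPM against 1141 and 2470 CPM in WT, with 6 of 6 log2 fold changes above 0. The fast fibre list, the partners and the regulators were also higher there, and these 3 overlapped by library totals. Tpm1 and Tpm2, which skeletal fibres also express, gave most of the reads of the partners. With TMM factors, the tendon, blood, immune and adipocyte lists overlapped between KO and WT in both models. By library totals the adipocyte sums in AMPKα2 were lower in KO (178 and 187 CPM) than in WT (202 and 550 CPM), and the fibroblast sums were higher in KO (2252 and 2403 CPM) than in WT (1755 and 1959 CPM). The part of any of these lists in the values of the 9 genes was not tested.

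Among the genes whose pattern over the 8 libraries was most like that of Myl9 were Tmem87b (r = 0.983) and Dock9 (r = 0.983), each at r = 0.979 without the library labelled AMPKα1 KO 2. The measure was Pearson's r of log2 CPM after the mean of each model was subtracted, among 6701 genes with at least 200 reads and a read in every library. Tmem87b was at 76.0 and 63.4 CPM in AMPKα1 KO and 11.2 and 17.6 CPM in AMPKα1 WT, and at 10.7 to 14.8 CPM in the 4 AMPKα2 libraries. The other 5 of the 9 genes that had a read in every library were not near them, with r to Myl9 of −0.78 for Acta2, −0.42 for Des, 0.01 for Tagln, 0.09 for Cald1 and 0.41 for Myh11, which was 0.02 without that library. For Acta2 the closest were Emc3 (r = 0.978), Capns1 (r = 0.973) and Jak1 (r = 0.972). These r values are descriptions over 8 libraries that share their normalization, and the genes were not picked by function.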

How the data were processed

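Gastrocnemius RNA of 8 mice was profiled by WTTS-seq on an Ion PGM instrument. According to the methods, the authors filtered reads with the FASTX Toolkit, cut the Ts at read starts, mapped reads still 16 bases or longer with TMAP to GRCm38.p5, clustered read starts into APSs and assigned them with Cuffcompare. The deposited table held raw, unnormalized counts per library for each APS that summed to 16 or more. Rows with no gene (6700, with 9.33% of the reads) stayed out of gene sums. The 9 genes and all lists were chosen with earlier results of these data known.

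Counts were summed per gene symbol. KO was compared with WT within each model with edgeR 4.0.16 (R 4.3.3, limma 3.58.1), using TMM factors and robust quasi-likelihood tests of genotype. Features needed a sum of 16 reads in the 4 libraries, and a call was a Benjamini-Hochberg adjusted p under 0.1 over all features. Standard errors are approximate, since they were computed back from each F. Each library came from a separate mouse. DESeq2 1.42.0, other normalizations and filters, a replicate block and leaving out each library were alternatives. CPM and intervals (Wilson, 95%, counting error only) covered 2311242 to 3549156 reads per library, where 3 reads were 0.845 to 1.30 CPM by library totals. All 9 genes are named. Sites are named where they held at least 5% of a gene's reads or were called by edgeR or DESeq2, and other sites where a result rests on them, chosen after their values were seen. For the partner and regulator lists, genes called and the highest and lowest log2 fold change are named. A gene among those closest to Myl9 in pattern is not reported here. Scripts were tested on simulated data. Tables were made with pandas 2.3.3 and scipy 1.17.1 and figures with matplotlib 3.10.9, in Python 3.11.15 (numpy 2.4.6). Intergenic and intronic sequence was not used here.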

Additional observations from a re-analysis of the deposited data

Results flagged for a closer look

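The fitted KO effect on Myl9 was larger in AMPKα1, the model whose comparison chose this gene, than in AMPKα2. The log2 effect in AMPKα2 minus that in AMPKα1 was −3.77 (SE 0.55), from the genotype-by-model term of 1 fit to the 8 libraries, with 0.09 in AMPKα2 and 3.84 in AMPKα1. Both libraries labelled AMPKα1 KO were above both AMPKα1 WT libraries. Myl9 was chosen for its AMPKα1 value, so this difference is a description and carries no p. It was −3.95 without the library labelled AMPKα1 KO 2, which had 82 Prkaa1 reads. Of the 4 groups AMPKα1 WT was the one at the lowest level on both scales, 6.50 ± 2.57 CPM (SD, n = 2). The methods give neither the age nor the strain of these WT mice, so genotype in AMPKα1 cannot be told apart from age or strain. Groups of 2 libraries are too small for a search for samples that stand apart.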

How the results depend on the processing

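In AMPKα2 no alternative called any of the 9 genes or their sites. In AMPKα1 the number of genes called was 0 with edgeR within the model, and 1 with all 8 libraries in one fit and 1 with DESeq2 (Myl9 in each). The number of AMPKα1 sites called was 0, and 1 with library totals only, 2 with all 8 libraries in one fit and 2 with DESeq2, and it ran from 0 to 1 when 1 library was left out (1 without AMPKα1 WT 2, the Myl9 site). The interaction called 1 gene, and 0 at an adjusted p under 0.05, 0 with RLE normalization, 0 with library totals only and 0 with filterByExpr. It called 1 without a filter, 1 with sites on the strand of the gene only and 1 with DESeq2 (Myl9 in each). With 1 library left out, a group held 1 library, so only the Myl9 difference is given here. The interaction thus called Myl9 in some settings and not in others. The Myl9 difference itself ran from −4.25 to −3.51.

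Some small log2 fold changes changed sign. With library totals only, Tagln in AMPKα1 was 0.068, Myh11 in AMPKα2 −0.045 and Myl9 in AMPKα2 −0.091, and this scaling moved the median of all genes from −0.03 to 0.22 in AMPKα1 and from −0.0044 to −0.19 in AMPKα2. With 1 library left out, the range in AMPKα1 was −0.10 to 0.25 for Cald1, −0.75 to 0.22 for Des, −0.0045 to 0.48 for Myh11 and −0.51 to 0.38 for Tagln. In AMPKα2 it was −0.33 to 0.21 for Acta2, −0.22 to 0.12 for Des and −1.17 to 0.30 for Tagln. Myl9 in AMPKα1 stayed between 3.51 and 4.36. The cause of these changes was not tested.

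Over all genes in AMPKα2, the 51 calls became 26 at an adjusted p under 0.05, 161 (70 higher, 91 lower, against 27 and 24) with library totals only, 376 without a filter, 4 with all 8 libraries in one fit and 29 to 89 with 1 library left out. The 9 genes called in the interaction became 425 without the library labelled AMPKα1 KO 2. In AMPKα1 the 0 calls became 97 with all 8 libraries in one fit and 115 with DESeq2. Replicate numbers are shared between KO and WT but mark no common animal, and deviations of same-numbered libraries had correlations of 0.0411 in AMPKα1 (11640 genes) and −0.00843 in AMPKα2 (7434 genes). With the replicate number as a block, 77 genes and 519 APSs were called in AMPKα2, against 51 and 13 without it, and 0 of the 9 genes or their sites. With 2 mice per group, differences of the size of the SEs given above were not detectable.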
